A study of Mus musculus with 8 samples.

Results

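A set of 9 genes that macrophages use to take up, break down, store and release iron, of 37008 gene names on the array, was read from every probe that carries their name. The set is Slc40a1 (iron export), Slc11a1 and Slc11a2 (iron import across vesicle membranes), Cd163 and Tfrc (uptake of haemoglobin and of transferrin), Hmox1 (haem breakdown), Fth1 and Ftl1 (iron storage) and Spic (a regulator), with 17 of the 56605 probes. RNA came from macrophages of implanted pancreas tumours in female mice of the strain FvBn, 8 to 10 weeks old, sorted into 4 MHCII-high and 4 MHCII-low samples by the amount of MHC class II. The genotype is marked as not provided in the labels. The series' design text speaks of wild-type, KPC and FLT3-CRE/LSL-YFP animals and of normal pancreas as well as tumour, and does not tie these 8 samples to any of those mice. Both groups carry the label numbers 20435, 20436, 20439 and 20442, and nothing says whether each sample is its own animal. The p-values therefore reflect how far these samples vary, and that variation may be technical.

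Macrophages recycle the iron of aged red cells. They take up haemoglobin and whole cells, haem oxygenase opens the haem ring, the freed iron is held in the ferritin shell or leaves through ferroportin, the product of Slc40a1, and the liver hormone hepcidin removes ferroportin from the surface. Spleen red pulp macrophages are the specialists of this task and depend on the transcription factor Spi-C, the product of Spic, whose gene is switched on when haem lowers the repressor Bach1.

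The probes that the results turn on are shown first, since 2 probes of the same gene often gave different readings. Each is 60 bases long, is printed 5′ to 3′ as in the files, and capitals mark AATAAA, the signal for cleavage and polyadenylation near the end of many transcripts. No exon or UTR annotation of mm9 was used here. The Slc40a1 probes lie at chr1:45965255-45965314 (A_51_P389988) and chr1:45980637-45980696 (A_55_P2620111) of mm9 on the minus strand. Those of Cd163 lie at chr6:124270436-124270495 (A_55_P2289819) and chr6:124280484-124280543 (A_51_P231042) on the plus strand. The Hmox1 probes lie at chr8:77624406-77624466 (A_55_P2757433) and chr8:77620085-77620144 (A_52_P602559) on the plus strand, and the Spic probe at chr10:88138053-88138112 on the minus strand.
Slc40a1 A_51_P389988: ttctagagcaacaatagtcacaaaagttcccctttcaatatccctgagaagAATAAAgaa
Slc40a1 A_55_P2620111: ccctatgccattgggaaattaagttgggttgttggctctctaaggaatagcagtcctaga
Cd163 A_55_P2289819: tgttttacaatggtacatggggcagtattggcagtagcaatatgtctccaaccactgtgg
Cd163 A_51_P231042: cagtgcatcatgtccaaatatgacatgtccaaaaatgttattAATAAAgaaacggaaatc
Hmox1 A_55_P2757433: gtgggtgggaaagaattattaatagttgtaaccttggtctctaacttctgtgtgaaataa
Hmox1 A_52_P602559: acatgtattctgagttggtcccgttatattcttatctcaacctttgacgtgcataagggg
Spic A_51_P389885: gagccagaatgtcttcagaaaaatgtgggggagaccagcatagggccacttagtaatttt
AATAAA was present in 4 of the 17 probes as printed, the other 2 being a probe of Slc11a2 and one of Ftl1, against 9.8% of all 56605 probes. For both Slc40a1 and Cd163 the brighter probe holds it and the dimmer one does not. The probe with AATAAA had the larger difference between groups for Slc40a1 and the smaller for Cd163.

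Upstream sequence was available for 6 of the 9 genes, as 8 windows of 250 bases before a RefSeq gene start on GRCm38.p6. GAGGAA, the purine-rich core bound by PU.1, to which Spi-C is related, was searched on both strands. It occurred in 1 of the 8 windows, that of Slc11a1, 152 bases before the start, against 23.3% of 32851 windows of the same length. TGACNNNGC, the core of the element bound by Nrf2 and Bach1 with small Maf proteins, was in none of the 8, against 10.2%. A match is a description of letters, and no match says nothing about a factor's binding. Slc11a1 is shown for its match, in capitals, and Cd163 as the gene of a probe that passed the threshold in every fit that held it, both on the plus strand, at chr1:74374953-74375202 and chr6:124304401-124304650.
Slc11a1 upstream: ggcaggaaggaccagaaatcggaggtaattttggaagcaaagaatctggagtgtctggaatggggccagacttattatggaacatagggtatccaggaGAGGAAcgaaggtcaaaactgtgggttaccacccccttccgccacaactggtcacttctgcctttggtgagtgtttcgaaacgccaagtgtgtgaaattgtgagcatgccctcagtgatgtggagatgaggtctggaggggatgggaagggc
Cd163 upstream: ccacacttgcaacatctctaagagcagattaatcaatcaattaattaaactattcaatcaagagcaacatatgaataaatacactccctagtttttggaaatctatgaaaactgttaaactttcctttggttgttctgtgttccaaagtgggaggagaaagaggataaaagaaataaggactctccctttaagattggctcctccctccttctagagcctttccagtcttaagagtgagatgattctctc

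The arrays carried 62976 spots, and 38756 to 42120 of the 56605 probes (68.5% to 74.4%) were well above the local background. All 8 sat on 1 slide with 1 scan time, where row 1 held 1 MHCII-high and 3 MHCII-low samples and row 2 the reverse, so a comparison within a row rests on a single array of one group. Csf1r, Cd68, Mertk and Fcgr1, markers of the labelled cell type, were well above background on all 8 arrays, as was the dendritic cell marker Flt3. Since 68.5% to 74.4% of probes reached that level, it does not by itself bear out a cell type. The mean of 10 macrophage markers was 4.20 to 4.60 on MHCII-high and 4.59 to 5.02 on MHCII-low arrays. Of these 10, 1 was lower in MHCII-high, Adgre1 (change -1.71, limma's adjusted p = 0.00508), and none was higher. Signals here are log2 values relative to the 75th percentile of the array, and a change is MHCII-high minus MHCII-low. Markers of other cell types moved with the groups. Of 10 dendritic cell markers, 9 were higher in MHCII-high, with list means of -0.02 to 1.37 against -2.63 to -1.93, and Flt3, a receptor of dendritic cells and their progenitors, differed by 4.46. Of 9 markers of serous-cavity macrophages, 7 were lower, with list means of -0.14 to 1.56 against 2.85 to 3.18, and their defining factor Gata6 differed by -3.62. In sorted bulk samples, fewer cells of a type and less RNA per cell cannot be told apart, and the part of these markers in the results below was not tested.

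Iron handling probes were lower or near equal in MHCII-high cells. Each of the 17 was tested, and 14 were well above background on all 8 arrays. At an adjusted p of 0.05 in limma, 2 probes were lower in MHCII-high, 1 of Slc40a1 and 1 of Cd163, and none was higher. Over all 41184 probes tested, 2.46% were lower at that threshold and 5.17% changed in either direction. The groups did not overlap, with MHCII-high the lower, for 7 of the 17 probes, against 7.37% of all probes. The change was below 0 for 17 of 17 probes, against 51.1% of all, and the median change was -0.68 against -0.01. The members were chosen with earlier results of these data known, so these shares describe the set and test nothing. Without MHCII-low 20435, the array that stood apart for several members, 4 probes passed. Fits that left out 1 array passed 1 to 4 probes, and the fit with slide row as a block passed 1.

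**Figure D1:**
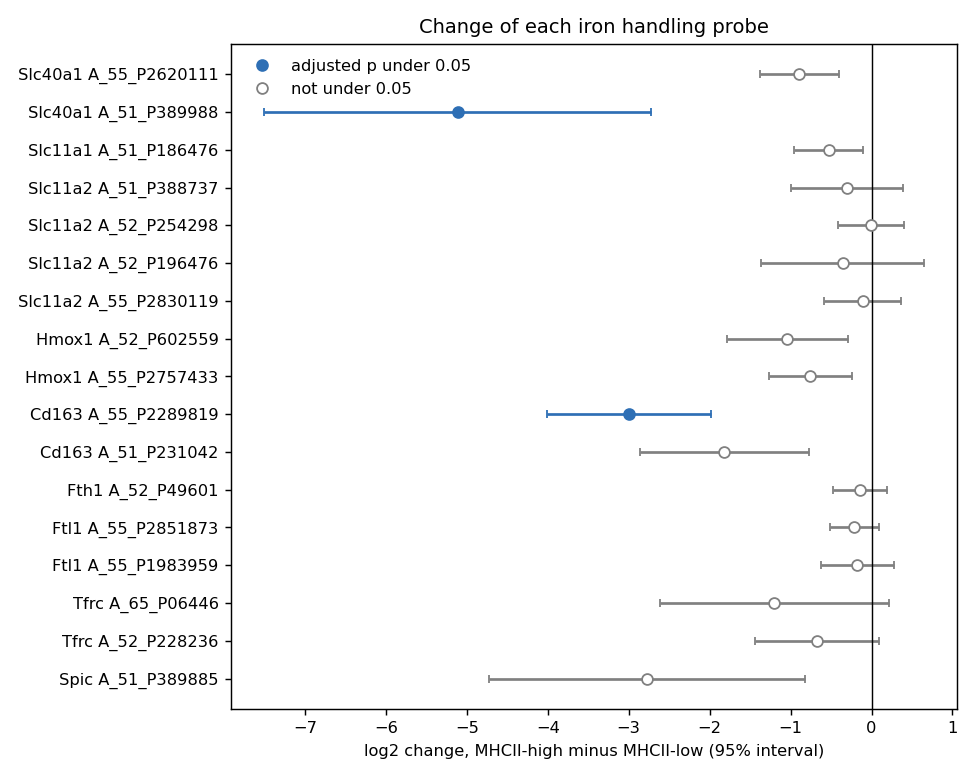
Change of each of the 17 probes between 4 MHCII-high and 4 MHCII-low arrays (x axis, log2 signal, MHCII-high minus MHCII-low) with its 95% interval from limma. Filled blue points passed an adjusted p of 0.05: 1 probe of Slc40a1 at -5.11 and 1 of Cd163 at -3.00, while all 17 points lie below 0.

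Slc40a1, the only known iron exporter of mammalian cells, had the largest change of the 17 probes. Its brighter probe, A_51_P389988, read -4.69, -2.43, -4.85 and -7.00 on MHCII-high 20435, 20436, 20439 and 20442, and -2.03, 0.88, 1.41 and 1.22 on the MHCII-low arrays in the same order. The groups did not overlap, but MHCII-low 20435 lay nearer to MHCII-high 20436 than to the other MHCII-low arrays, and 3 of the 4 MHCII-high arrays had this probe well above background. The change was -5.11 (95% interval -7.50 to -2.72), or 34.6-fold lower (6.61 to 181), with limma's adjusted p = 0.0306. The size of this fold rests on dim MHCII-high signals: with normexp background correction the change was -3.07 (adjusted p = 0.00461). Leaving out 1 array at a time ended the call in 6 of 8 fits (adjusted p up to 0.0817). It was also lost when slide row was a block (change -4.63, adjusted p = 0.119, -2.52 within row 1 and -6.74 within row 2) and without the filter on dim probes (adjusted p = 0.0501). Without MHCII-low 20435 it held, at -5.92 (adjusted p = 0.0225).

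The second Slc40a1 probe, A_55_P2620111, was dim everywhere. It read -5.36, -5.33, -4.93 and -4.96 on MHCII-high and -4.67, -4.41, -3.93 and -3.98 on MHCII-low arrays, again with no overlap, and 2 of the 4 MHCII-high arrays had it well above background. Its change was -0.89 (adjusted p = 0.0518), and -0.17 with normexp. The difference between the changes of the 2 probes was 4.22, with an exact permutation p = 0.0571 (two-sided, 70 assignments) and an adjusted p = 0.314 over the 11 pairs of probes that 6 of the genes allow. With 70 assignments a single pair cannot pass after that adjustment.

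Cd163, the receptor by which macrophages take up haemoglobin bound to haptoglobin, was lower on both of its probes, 1 of which passed. Probe A_55_P2289819 read 0.93, 1.53, 0.20 and -0.64 on the MHCII-high arrays and 3.86, 3.56, 2.93 and 3.64 on the MHCII-low arrays. Every MHCII-low array was above every MHCII-high array, and MHCII-low 20435 was the highest of all. The change was -3.00 (95% interval -4.01 to -1.98), or 7.98-fold lower (3.94 to 16.1), with limma's adjusted p = 0.0101, which stayed under 0.05 in all 17 alternatives that gave a value for it. The fit on the brightest probe of each gene gave none, since the other Cd163 probe is the brighter. Fitted with slide row as a block the change of A_55_P2289819 was -2.70 (adjusted p = 0.0486), and within rows -1.92 and -3.48.

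A second Cd163 probe, A_51_P231042, pointed the same way. It read 1.87, 2.19, 0.90 and -0.07 against 3.30, 2.94, 2.76 and 3.16. Here too the groups did not overlap, and the change was -1.82 (95% interval -2.86 to -0.78) with an adjusted p = 0.0605, which was 0.0198 with normexp and 0.197 in the row-blocked fit. The 2 changes differed by -1.18, with an exact permutation p = 0.0286, the smallest that 70 assignments can give, and an adjusted p = 0.314.

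Import from vesicles was read from the Nramp transporters. Slc11a1 pumps metal ions out of phagosomes and limits microbes inside them. Its probe, A_51_P186476 at chr1:74432161-74432220, read 3.59, 3.56, 3.16 and 3.16 on MHCII-high and 3.95, 3.92 and 3.82 on MHCII-low 20435, 20436 and 20439, since the spot of MHCII-low 20442 was marked as an outlier and dropped. All 3 MHCII-low values were higher, and the change over these 7 arrays was -0.53 (95% interval -0.95 to -0.11) with an adjusted p = 0.155, or -0.64 (adjusted p = 0.088) with that spot kept. Slc11a2, which moves iron from endosomes to the cytosol, had 4 probes on chromosome 15, with changes of -0.30 (A_51_P388737), -0.01 (A_52_P254298), -0.36 (A_52_P196476) and -0.11 (A_55_P2830119) and adjusted p between 0.623 and 0.984. The groups overlapped for each of them. Tfrc, the transferrin receptor, gave -0.68 (95% interval -1.44 to 0.09, adjusted p = 0.304) on its brighter probe, A_52_P228236, and -1.20 (-2.62 to 0.22, adjusted p = 0.324) on the dim A_65_P06446, which cleared background well on 3 of the 4 MHCII-high arrays and gave -0.32 with normexp. Their groups overlapped as well.

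Hmox1 is the inducible haem oxygenase. Its probe A_55_P2757433 read 3.41, 3.13, 2.73 and 2.62 on MHCII-high and 3.55, 3.62, 3.62 and 4.12 on MHCII-low arrays. The groups did not overlap, though MHCII-high 20435 came close to MHCII-low 20435. The change was -0.76 (95% interval -1.27 to -0.25, adjusted p = 0.0975), and it passed with normexp (adjusted p = 0.0401). Probe A_52_P602559 read -2.35, -0.97, -1.53 and -2.04 against -1.08, -0.37, -0.95 and -0.31, with overlap and a change of -1.04 (adjusted p = 0.115).

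The ferritin chains that store iron differed little, and none of their 3 probes passed. Fth1, the heavy chain that oxidises iron, was read by A_52_P49601 and had a mean of 5.19 ± 0.13 (SD, n = 4) on MHCII-high and 5.33 ± 0.15 (SD, n = 4) on MHCII-low arrays, a change of -0.14 (95% interval -0.47 to 0.20, adjusted p = 0.65). Ftl1, the light chain, changed by -0.21 (-0.51 to 0.09, adjusted p = 0.414) on A_55_P2851873, whose groups did not overlap, and by -0.18 (-0.62 to 0.27, adjusted p = 0.668) on A_55_P1983959, which spans 482 bases of mm9. These intervals leave room for a difference of at most 0.62 on the log2 scale toward lower values. Ferritin is regulated largely at translation, which arrays do not measure.

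**Figure D2:**
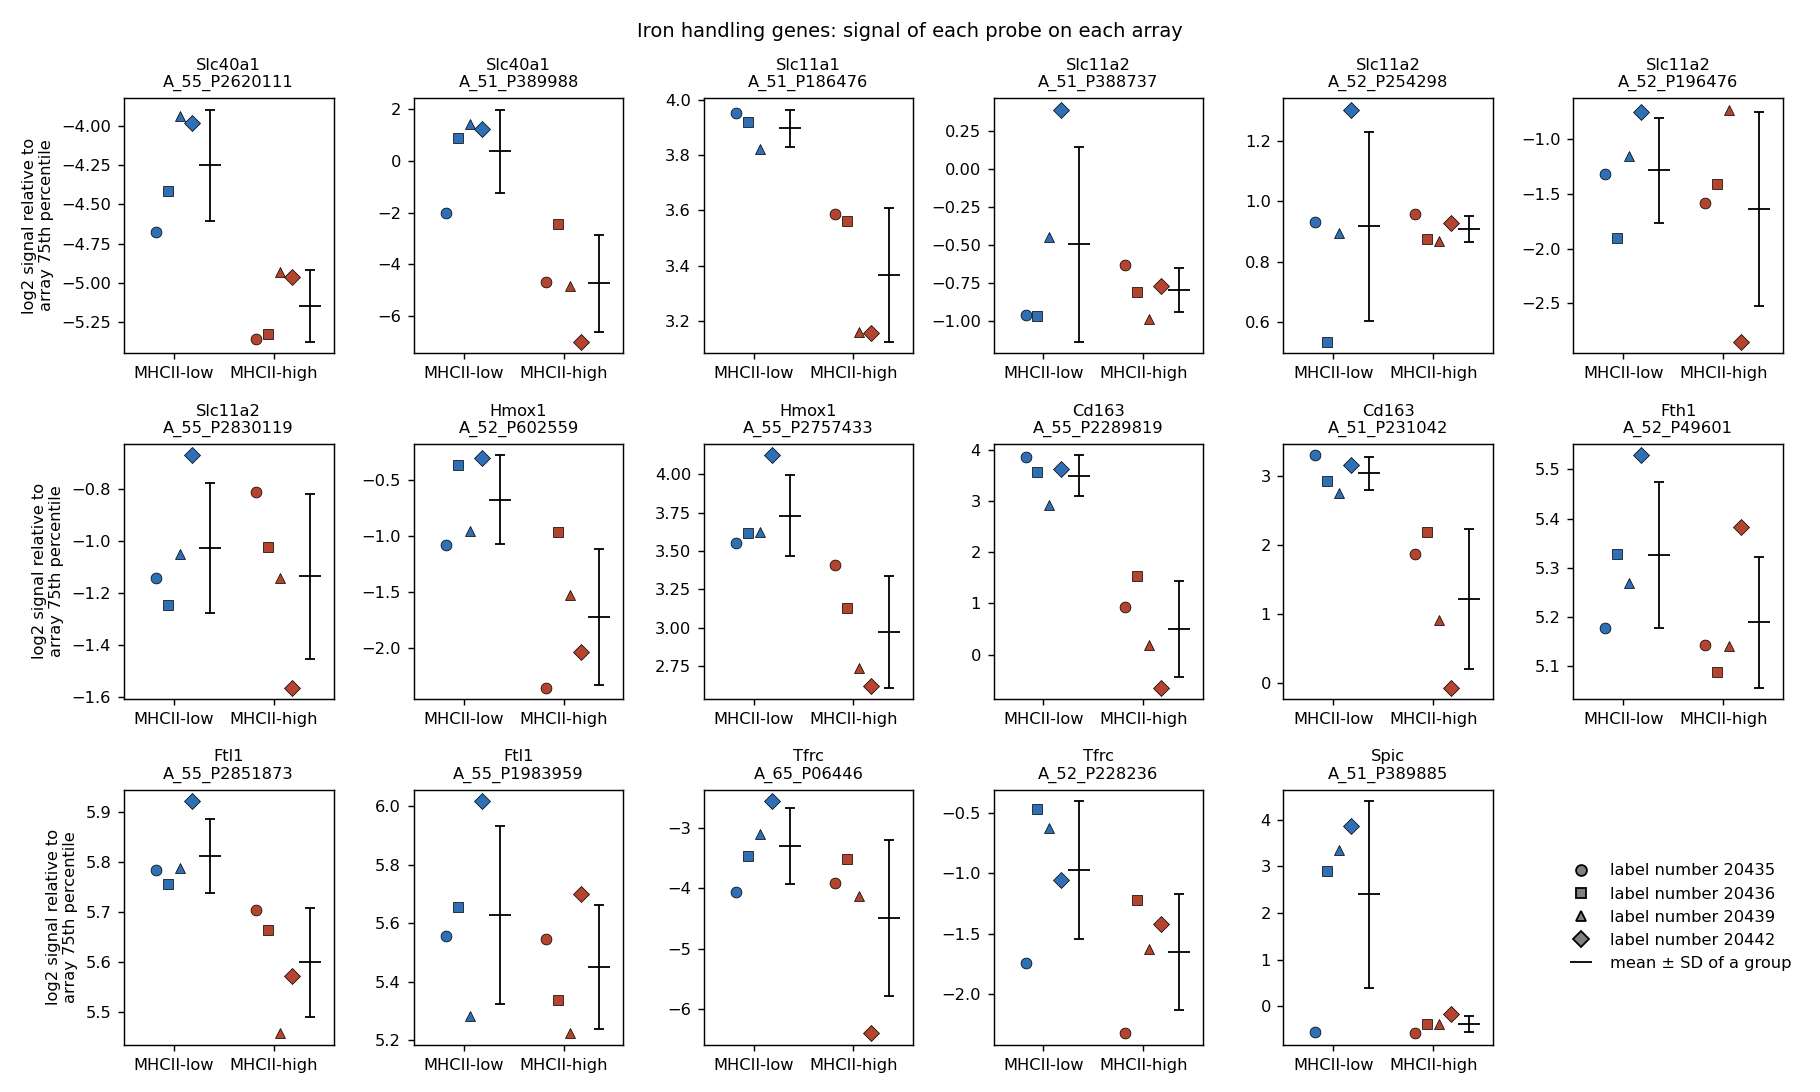
Signal of each of the 17 probes on each array (y axis, log2 signal relative to the array's 75th percentile, with its own scale in each panel), with MHCII-low in blue, MHCII-high in red, a marker shape for each label number and bars for the mean ± SD of a group. Cd163 and the brighter Slc40a1 probe separate the groups, Fth1 and Ftl1 lie within 1 unit, and in the Spic panel MHCII-low 20435 sits at -0.55 among the MHCII-high arrays.

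Spic split the MHCII-low arrays themselves. Its probe read -0.58, -0.38, -0.39 and -0.18 on MHCII-high arrays and -0.55, 2.91, 3.36 and 3.87 on MHCII-low 20435, 20436, 20439 and 20442. Of the MHCII-low arrays, 3 were above every MHCII-high array and MHCII-low 20435 was level with them. The change was -2.78 (95% interval -4.73 to -0.83) with an adjusted p = 0.110. It was -3.76 (adjusted p = 0.00132) without MHCII-low 20435, -2.58 (adjusted p = 0.0438) with normexp and -3.27 (adjusted p = 0.154) in the row-blocked fit.

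Erythroid transcripts, taken as a mean, had the same array apart. The mean of 14 erythroid markers, all 14 measured and none past the threshold, was -2.87, -1.55, -2.23 and -0.80 on MHCII-high and -3.00, 1.06, 0.81 and 1.46 on MHCII-low arrays. Hbb-b1, a globin chain, was well above background on 2 MHCII-high and 3 MHCII-low arrays, and read -7.10, 2.37, 1.41 and 3.24 on the MHCII-low arrays. Alas2, the erythroid enzyme of haem synthesis, read -4.02, 1.25, 1.32 and 2.25 there. Not every marker of the list followed: Ermap was highest of its group on MHCII-low 20435, and Epor, Epb42 and Klf1 were not lowest on it. Slc40a1, like the erythroid mean, was lowest of its group on MHCII-low 20435, and Cd163 was not. Within MHCII-high the erythroid mean ran from -2.87 to -0.80 and Spic from -0.58 to -0.18, with the 4 arrays in the same order for both. Of these, 20439 and 20436 were almost level for Spic, at -0.386 and -0.377. The order did not hold for Slc40a1 A_51_P389988, which read lowest (-7.00) on MHCII-high 20442, where the erythroid mean was highest. The part of the erythroid signal in the Spic and Slc40a1 results was not tested.

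**Figure D3:**
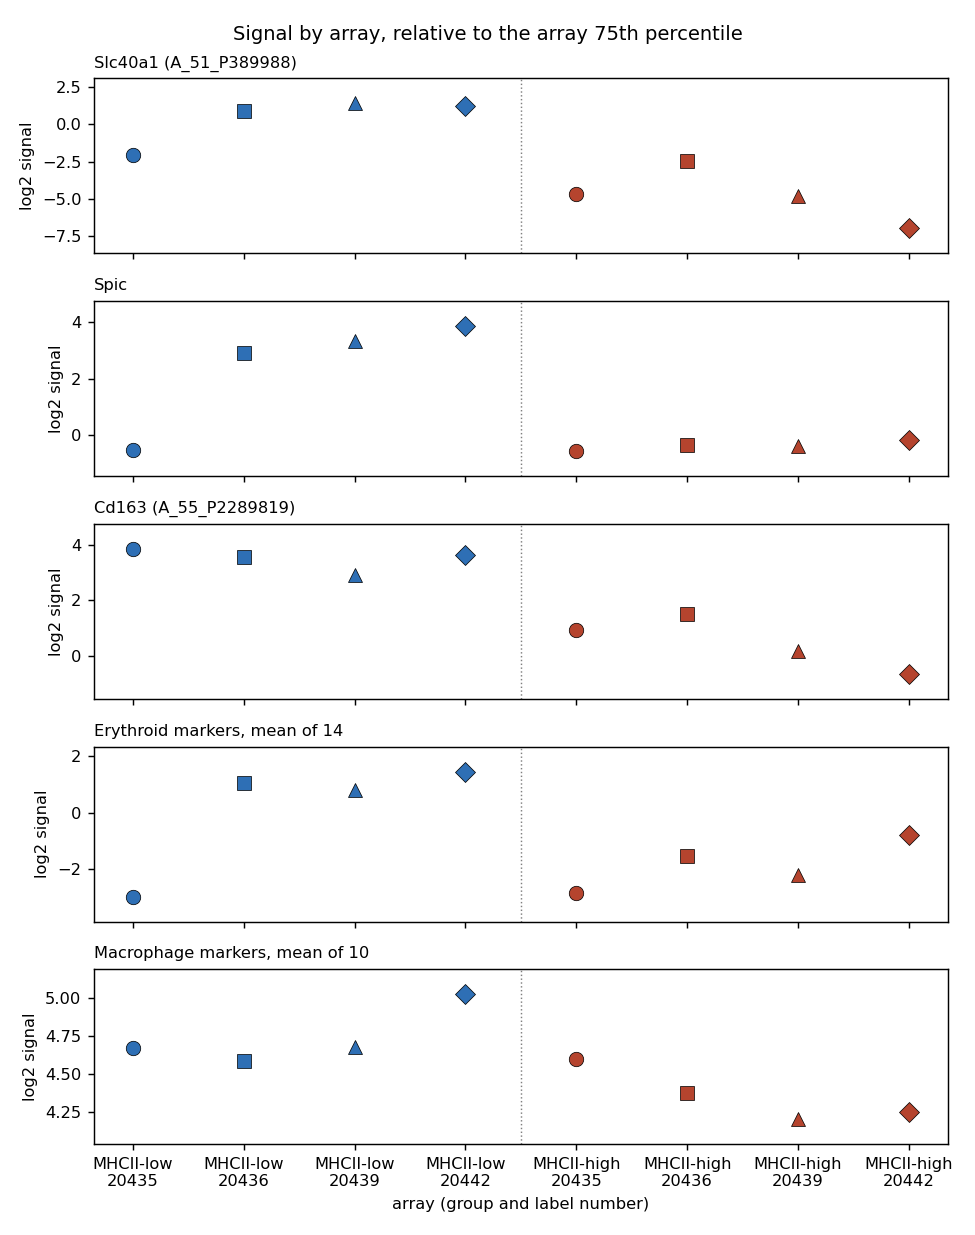
Log2 signal by array (x axis, group and label number) for Slc40a1, Spic, Cd163, the mean of 14 erythroid markers and the mean of 10 macrophage markers, each on its own y axis. MHCII-low 20435 is the lowest MHCII-low array for Slc40a1 (-2.03), Spic (-0.55) and the erythroid mean (-3.00), and the highest for Cd163 (3.86).

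The 3 other genes whose pattern over the 8 arrays was nearest to the brighter Slc40a1 probe, by the root mean square difference of log2 values after removal of each probe's mean, were Pcolce2 (0.899), Ccr3 (1.01) and Gm34973 (1.21). Pcolce2 and Ccr3 changed by -4.06 and -4.20. None of the MHCII-high arrays had the Gm34973 probe well above background, so it was kept through its MHCII-low arrays alone. It was 6.31-fold lower when set against the dimmest signals above background (limma's adjusted p = 0.00614). With normexp the change of Gm34973 was -1.46, a smaller fold. Ccr3, a chemokine receptor best known from eosinophils, read lowest of its group on MHCII-low 20435, at -1.91 against 1.09, 1.63 and 2.31. The 3 genes were picked for matching Slc40a1, so these changes and that low reading are not separate results. In the row-blocked fit Pcolce2 (adjusted p = 0.106) and Ccr3 (adjusted p = 0.131) did not pass.

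Other genes of iron and haem metabolism, in 6 lists without the members, were mostly below 0, and some passed the threshold as lower in MHCII-high. Of 89 listed, 85 were measured by their brightest probe, 11 (12.9%) were lower in MHCII-high and none higher, against 2.26% lower and 2.6% higher of all 28009 genes. The median change was -0.25 and 65 of 85 were below 0. These lists, and the red pulp list below, were chosen with earlier results of these data known. A share above that of all genes is therefore no separate test. With normexp 3 genes passed as higher, Alas1 (0.68), Maff (0.72) and Slc7a11 (0.61), which in the fit reported had changes of 0.63, 0.76 and 0.66 and adjusted p = 0.0697, 0.0579 and 0.0758, with groups that did not overlap. Among genes of iron export and the hepcidin pathway, 4 of 16 were lower. These were Bmp6 (-3.08) and Bmp2 (-2.13), ligands that induce hepcidin in the liver, and Hephl1 (-2.66) and Cp (-1.77), ferroxidases that oxidise iron as it leaves the cell. Bmp6 was well above background on 3 MHCII-high arrays, and with normexp its change was -1.65 (adjusted p = 0.000952). Bmp6 and Hephl1 also passed in the row-blocked fit, while Bmp2 (adjusted p = 0.0688) and Cp (adjusted p = 0.142) did not. Another Cp probe gave -0.10, and Hamp, which encodes hepcidin, was not well above background on any array.

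Uptake and transfer genes included 3 of 17 lower, namely Slc22a17 (-1.29), a receptor for lipocalin-2, Steap3 (-1.12), an endosomal ferric reductase, and Slc25a37 (-0.95), the mitochondrial importer mitoferrin-1. None of these 3 passed in the row-blocked fit (adjusted p = 0.0663, 0.149 and 0.0598). Another Slc22a17 probe gave 0.19, and other Slc25a37 probes gave -1.06 (adjusted p = 0.0244), -0.57 (adjusted p = 0.185) and 1.14 (adjusted p = 0.469). In storage and its control, 1 of 13 was lower, Fbxl5 (-1.03), which marks the iron regulatory protein Irp2 for degradation. The iron regulatory proteins themselves, Aco1 (-0.40, adjusted p = 0.305) and Ireb2 (-0.47, adjusted p = 0.159), and the ferritin receptor of autophagy Ncoa4 (-0.83, adjusted p = 0.0917) were not past the threshold.

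Haem uptake, breakdown and export had 2 of 14 lower. These were Slc46a1 (-1.16), a folate transporter also described as a haem carrier, and Lrp1 (-0.68), a receptor for haemopexin with haem, whose other probes gave 0.84 and 0.25 and which had an adjusted p = 0.117 in the row-blocked fit. Blvrb (-1.41, adjusted p = 0.0678), a biliverdin reductase, Slc48a1 (-0.72, adjusted p = 0.0707), the haem exporter of phagolysosomes, and Hmox2 (-0.21, adjusted p = 0.508) did not pass. In haem synthesis 1 of 10 was lower, Fech (-0.87), which inserts iron into the ring and had an adjusted p = 0.15 in the row-blocked fit. Of 15 genes of the Bach1 and Nrf2 axis, none passed in either direction in the fit reported, while 2 were higher with normexp (Maff and Slc7a11) and 1 with probes well above background on all 8 arrays. The list median was -0.04, with Bach1 at 0.03 (95% interval -0.49 to 0.56) and Nfe2l2, which encodes Nrf2, at 0.39 (-0.06 to 0.84).

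**Figure D4:**
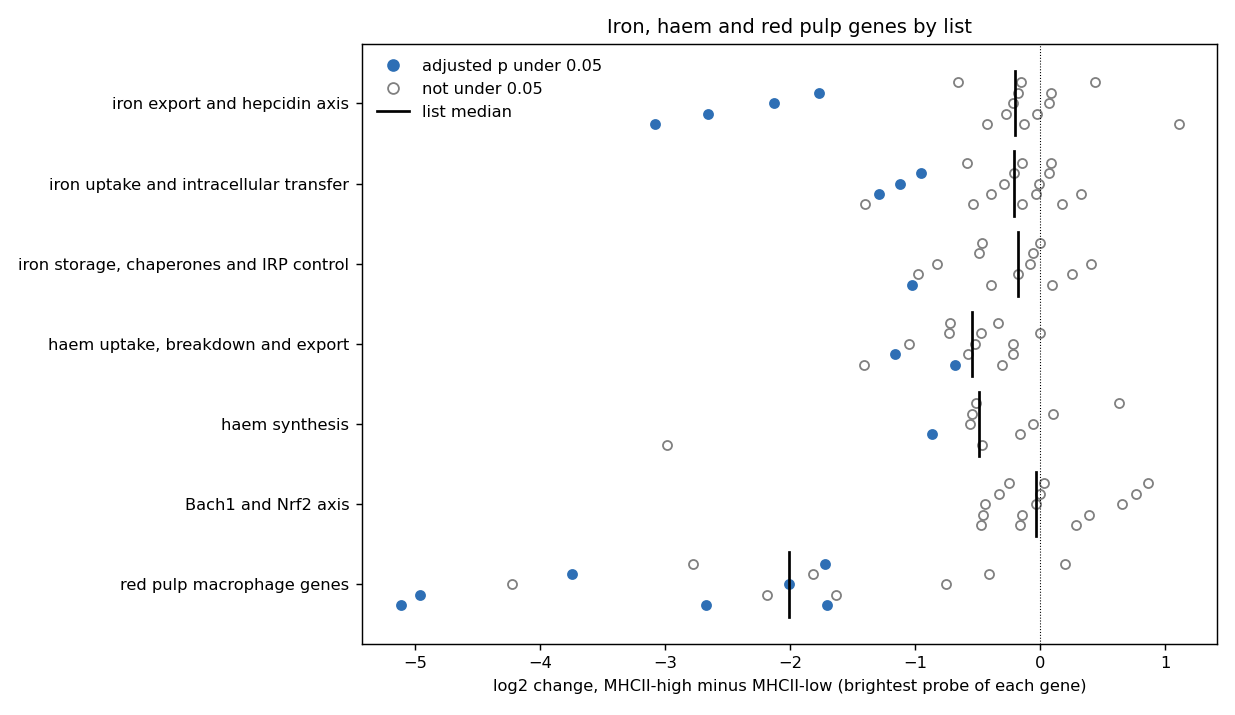
Change of each measured gene (x axis, log2 signal, MHCII-high minus MHCII-low, brightest probe) in 7 lists, with filled points past an adjusted p of 0.05 and a bar at the list median. Filled points lie below 0 in 6 of the lists, and the red pulp list, which includes 4 of the 9 members, has its median at -2.01.

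A list of 15 genes drawn up for spleen red pulp macrophages, with Slc40a1, Cd163, Hmox1 and Spic among them, had a median change of -2.01. Some of its genes, such as Cd209b and Siglec1, are not particular to the red pulp. Of the 11 listed genes that are not members, 6 were lower and none higher, against 2.26% lower of all 28009 genes. Their median was again -2.01. Cd209b, a lectin, had no MHCII-high array well above background, so it was kept through its MHCII-low arrays alone. It was 8.54-fold lower when set against the dimmest signals above background (limma's adjusted p = 0.00238). With normexp the change of Cd209b was -1.76, a smaller fold. Cd5l (-3.75), a secreted scavenger protein, Fcna (-2.67), a ficolin, C6 (-2.01), a complement component, Siglec1 (-1.72) and Adgre1 (-1.71), a classical surface marker of mouse macrophages, were the others, and Fcna lost its call in the row-blocked fit (adjusted p = 0.0555). Vcam1, an adhesion molecule, read 0.11 on MHCII-low 20435 and 2.32, 3.17 and 2.80 on the other MHCII-low arrays, and Itgad read -7.39 against 2.50, 2.81 and 3.40. These are the arrays that split for Spic, but Vcam1 and Itgad were picked after their values were seen. Other genes of the list did not split this way. On MHCII-low 20435 Cd5l read 3.35, against 3.58, 3.30 and 3.78, and Adgre1 read 4.86, against 4.79, 4.82 and 5.18. Without MHCII-low 20435, 11 of the 15 passed in place of 7, while over all 28009 genes 323 were lower in place of 633. That array was singled out because genes of this list read low on it, so the rise is not a separate result.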

How the data were processed

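Total RNA was amplified and labelled with Cy5, per the labels' protocols, and hybridised to 1-colour arrays of 8 samples. The authors read spot intensity with Agilent Feature Extraction, version 11.5.1.1 in the submitters' processing notes. Processed signals are background-corrected intensity with no dye normalization, per the file headers. A deposited series table holds log2 values of the same arrays, with medians of 9.38137 to 9.38149 and correlations of 0.9984 to 0.9998 with the log2 processed signal of the same array. Its normalization is not given in the sources used here, and its scale and direction were read from that comparison.

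Here, 3671 control spots and 67 to 160 outlier-marked spots per array were left out, no spot was saturated, and log2 processed signals were set relative to the 75th percentile of the array. Spots of a probe were averaged, and a probe was kept if 4 or more of the 8 arrays had it well above background. The main test was limma 3.58.1 (lmFit, eBayes) in R 4.3.3 with no covariates. Two-sided p-values were adjusted over the 41184 probes kept (Benjamini-Hochberg), at a threshold of 0.05. For lists, a gene was its brightest probe, adjusted in the fit over all probes. Names came from the files, updated through the RefSeq table of GRCm38.p6 (32994 probes by accession, 10224 by symbol, 520 by synonym, 12867 left as in the files). Probe coordinates are on mm9, as deposited. Scripts were tested on simulated data. Precision is limited by the number of arrays.

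Every member probe is named, and of the other iron and haem genes each one past the threshold and a fixed set of 10 (Hamp, Cp, Slc48a1, Nfe2l2, Bach1, Ncoa4, Ireb2, Aco1, Hmox2 and Blvrb), with the 3 genes nearest to Slc40a1. One named marker is not reported here. Vcam1, Itgad, Alas1, Maff and Slc7a11 were chosen after their values were seen. The members and lists were chosen with earlier results of these data known. Alternatives covered background correction (normexp, offset 50), scaling, the deposited table, filters on dim probes, the brightest probe, outlier spots, slide row and label number as blocks, and leaving out each array.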

Additional observations from a re-analysis of the deposited data

Results flagged for a closer look

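Of 108 groups of 4 arrays checked, 9 had 1 array far from the other 3 (by Dixon's gap at the 95% level), and chance flags about 1 in 20. MHCII-low 20435 stood low for Slc40a1 A_51_P389988 (-2.03) and for the mean of the erythroid markers (-3.00). MHCII-low 20442 stood high for Hmox1 A_55_P2757433 (4.12) and for Slc48a1 (4.21). In the same group, Aco1 was low on MHCII-low 20439 (1.58) and Bmp6 was high on MHCII-low 20436 (0.018). In MHCII-high, Fbxl5 was high on 20435 (2.27), Fech was low on 20442 (1.23) and Slc22a17 was low on 20439 (-0.81). The cause of these gaps was not tested.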

How the results depend on the processing

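The number of probes past the threshold was 2130 in the fit reported, 1381 with the brightest probe of each gene alone, 713 when slide row was a block, 1265 with the replicate block and 879 to 1773 with 1 array left out. Of the member probes 2 passed, against 5 with normexp (both Cd163 probes, Slc40a1 A_51_P389988, Hmox1 A_55_P2757433 and Spic), 1 without the filter on dim probes, 1 with the brightest probes alone, 1 when slide row was a block, 1 with the replicate block and 1 to 4 with 1 array left out. The highest came without MHCII-low 20435, where both Slc40a1 probes, Cd163 A_55_P2289819 and Spic passed. Of the other iron, haem and red pulp genes 17 passed, 9 when slide row was a block and 10 to 17 with 1 array left out, the lowest without MHCII-high 20439. Higher calls among them, 0 in the fit reported, were 3 with normexp, and 1 each with quantile normalization, the deposited table, probes well above background on all 8 arrays, and without MHCII-high 20442 or MHCII-low 20442. Where fewer passed in these fits the cause was not tested.

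The replicate block used the label number. Correlations of same-numbered deviations were 0.081 to 0.199, and since 1 of 4 was under 0.1 the numbers were not taken to pair samples. All 8 samples correlated best with their own number, a hint from the data and not from the design. Slc40a1 A_51_P389988 had an adjusted p = 0.0602 with that block and Cd163 A_55_P2289819 one of 0.0272.

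Small values changed sign. Slc11a2 A_52_P254298 went to 0.012 with quantile normalization and with the deposited table, and from -0.14 to 0.12 with 1 array left out, Slc11a2 A_52_P196476 from -0.66 to 0.044 and A_55_P2830119 from -0.22 to 0.033. Differences between the changes of probe pairs were 0.062 for Hmox1 and 0.24 for Tfrc with normexp, and -0.14 for Slc11a2 A_51_P388737 against A_52_P196476 and 0.12 for Ftl1 when slide row was a block. With 1 array left out they spanned -0.13 to 0.069 for Ftl1, -0.49 to 0.069 for Hmox1, -0.95 to 0.19 for Tfrc, and for Slc11a2 -0.36 to 0.42 (A_51_P388737 against A_52_P196476), -0.56 to 0.011 (A_52_P196476 against A_55_P2830119), -0.061 to 0.67 (A_52_P254298 against A_52_P196476) and -0.050 to 0.19 (A_52_P254298 against A_55_P2830119). A single pair of probes cannot pass after adjustment over 11 pairs at these numbers of assignments, so the pair tests say nothing about stability. Dim probes of Slc40a1 and Tfrc limit how well their folds are known.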
